A study of Homo sapiens with 8 samples.

Results

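The genes described here are 6 of the BCL2 family, which encode proteins that set whether a cell lives or dies at its mitochondria: BCL2, MCL1, BAX, BBC3, BCL2L11 and BAD. They were chosen by symbol, with every probe that carries one of these symbols in the array's annotation, and each had exactly 1 probe, so 6 of 16098 named probes and 6 of 14884 tested genes are members. All 6 were measured on every array, and no filter on low values was applied. RNA came from THP-1 cells, a human monocytic line from an acute myeloid leukaemia, bought from ATCC and grown in RPMI-1640 with fetal calf serum. Cells received IPA-3 at 6 µg/mL (2 arrays), FRAX-597 at 2 µg/mL (2 arrays) or an equal volume of the solvent DMSO (4 arrays), and RNA was taken after 5 h. Both compounds inhibit p21-activated kinases (PAKs); IPA-3 does so away from the ATP site and FRAX-597 competes with ATP. By its title the series concerns PAK1 as a point of attack in these leukaemias and in myelodysplasia, and the comparison made here asks how RNA of survival and death genes stood after each compound. Each group is limited as a model to 1 cell line, 1 dose and 1 time point.

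Members of the BCL2 family act by binding each other. BCL2 and MCL1 are survival proteins that hold the killers in check; MCL1 is short-lived and has to be made continuously, and myeloid leukaemia cells often depend on one or the other. BAX is an effector, which forms pores in the outer mitochondrial membrane and lets cytochrome c out. BBC3 (PUMA), BCL2L11 (BIM) and BAD belong to the BH3-only proteins, which bind the survival proteins or activate the effectors. BBC3 is controlled largely at the level of transcription, BCL2L11 is raised by FOXO factors and marked for destruction by ERK signalling, and BAD is held inactive by phosphorylation, to which PAK1 is known to contribute. Arrays measure RNA only, so none of these protein-level controls is read here.

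The 8 arrays lay on 2 scales. The median over all 53617 probes was 5.51 to 5.55 in DMSO 1, DMSO 2 and both IPA-3 arrays, and 6.00 to 6.05 in DMSO 3, DMSO 4 and both FRAX-597 arrays. Each compound was therefore compared with the DMSO pair on its scale, and levels are ordered only within such 4 arrays. No batch is named, and whether replicates were grown separately is not stated, so p-values and errors measure array-to-array spread alone, part or all of which may be technical. Of 18 monocytic marker genes 11 were measured, and 7 of these, among them CD68, CSF1R, LYZ, SPI1 and TYROBP, lay above the upper quartile of all probes on every array. CD14 (percentiles 61.9 to 74.7), MPO (52.5 to 60.6), CD86 (46.2 to 65.7) and CD4 (67.9 to 90.1) did not. T cell (5 of 8 measured), B cell (3 of 7), fibroblast (2 of 7) and erythroid (1 of 6) markers had 0 genes above that quartile on every array, and the epithelial list had 1 of 5, KRT18. This does not show absence, since 0 B cell and 0 erythroid genes lay below the median on every array. The T cell gene CD8A lay at percentiles 66.9 to 73.2, within the range of CD14. Summed on the linear scale and put back to log2, the monocytic markers came to 14.05 to 14.11 in DMSO 1 and 2, 13.82 to 13.99 with IPA-3, 13.71 to 13.88 in DMSO 3 and 4, and 13.76 to 13.91 with FRAX-597. In bulk RNA, fewer cells expressing a gene and less RNA per cell cannot be told apart.

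The 250 bases before the transcription start are given for BCL2, BCL2L11 and BBC3. Values of BCL2 and BCL2L11 lay lower with both compounds, and the mean of BBC3 lay higher with both. The mean of BAX, whose window is not printed, also lay lower with both (-0.16 with IPA-3 and -0.15 with FRAX-597). With FRAX-597, 1 of the 2 BBC3 arrays lay between its controls, and none of these changes was called. The printed windows are RefSeq sequence of build GRCh38.p14, written 5′ to 3′ along the gene's strand. Of the 6 genes 5 had an entry in the promoter table; MCL1 had none. Capitals mark matches, on either strand, to any of 7 motifs: the GC box GGGCGG, the CCAAT box CCAAT, the E-box CACGTG bound by MYC and MAX, the FOXO site GTAAACA, the cyclic AMP response element TGACGTCA, the ATF4-bound element TGATGNAA and the TATA box TATAAA.
BCL2, chr18:63319770-63320019, minus strand: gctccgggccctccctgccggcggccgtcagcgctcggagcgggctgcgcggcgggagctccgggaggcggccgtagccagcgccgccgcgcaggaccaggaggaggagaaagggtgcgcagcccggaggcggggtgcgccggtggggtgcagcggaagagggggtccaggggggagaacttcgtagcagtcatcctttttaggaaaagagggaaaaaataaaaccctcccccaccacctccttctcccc
BCL2L11, chr2:111120664-111120913, plus strand: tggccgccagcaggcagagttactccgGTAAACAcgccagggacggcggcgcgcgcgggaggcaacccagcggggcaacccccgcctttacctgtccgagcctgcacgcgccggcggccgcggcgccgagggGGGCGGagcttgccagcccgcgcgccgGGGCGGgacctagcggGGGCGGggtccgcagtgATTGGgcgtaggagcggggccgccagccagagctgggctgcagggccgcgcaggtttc
BBC3, chr19:47232668-47232917, minus strand: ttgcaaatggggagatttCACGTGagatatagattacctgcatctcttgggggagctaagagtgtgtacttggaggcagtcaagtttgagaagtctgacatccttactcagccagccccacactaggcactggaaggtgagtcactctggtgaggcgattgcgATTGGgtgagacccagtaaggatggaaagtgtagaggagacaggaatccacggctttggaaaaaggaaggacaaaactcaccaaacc

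The BCL2L11 window held 3 GC boxes, 1 CCAAT box and 1 FOXO site, which began 223 bases before the start. Among 35116 promoter windows of the same length in the table, 42.6% held a GC box, 32% a CCAAT box and 2.98% that FOXO site. The BBC3 window held 1 E-box and 1 CCAAT box, and none of the 7 motifs was spelled in the BCL2 window. The window of BAX, not printed, held 4 E-boxes, a motif in 6.34% of all windows; BAD had 1 GC box and 1 CCAAT box before each of its 2 listed starts. The cyclic AMP response element (in 1.65% of windows), the ATF4-bound element (3.14%) and the TATA box (10.7%) matched no member. The GC content was 70% for BCL2, 76.8% for BCL2L11 and 49.2% for BBC3, against a median of 58% over all windows. These are matches of letters, and binding was not measured.

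No member passed the test with either compound. BCL2 had the largest difference of the 6 from its controls with each of them, at log2 values of -0.52 with IPA-3 and -0.51 with FRAX-597, and BCL2L11 was the other member below its own DMSO arrays on every array of both compounds. That rank of BCL2 did not hold in every setting. With FRAX-597, MCL1 had 0.60 and BCL2L11 -0.48 against -0.45 for BCL2 without FRAX-597 2, and MCL1 had 0.31 against -0.27 without DMSO 4. With IPA-3 and pooled controls, BCL2L11 had -0.69 against -0.14 for BCL2. Pooling mixes the 2 scales, and DMSO 3 and 4 minus DMSO 1 and 2 was -0.77 for BCL2 and 0.82 for BCL2L11. That swap comes from the gap between control pairs, so it does not rank the changes with IPA-3. MCL1 lay above both of its controls on both FRAX-597 arrays, and BBC3 lay above both of its controls on both IPA-3 arrays and on 1 of the FRAX-597 arrays. In limma with adjustment over all 14884 genes, 0 of the 6 were called for IPA-3, where 0.0336% of all genes were called, and 0 for FRAX-597, where 0.155% were. At an unadjusted p under 0.05, 1 member lay lower with IPA-3 (BCL2; 4.11% of all genes) and 0 higher (3.10%), and 2 lay lower with FRAX-597 (BCL2 and BCL2L11; 3.61%) and 0 higher (4.04%). With 2 arrays against 2, groups often separate: IPA-3 arrays did not overlap their DMSO arrays for 2 members lower (28.3% of all genes) and 1 higher (19.3%), and FRAX-597 arrays for 3 lower (17.8%) and 1 higher (13.0%).

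**Figure D1:**
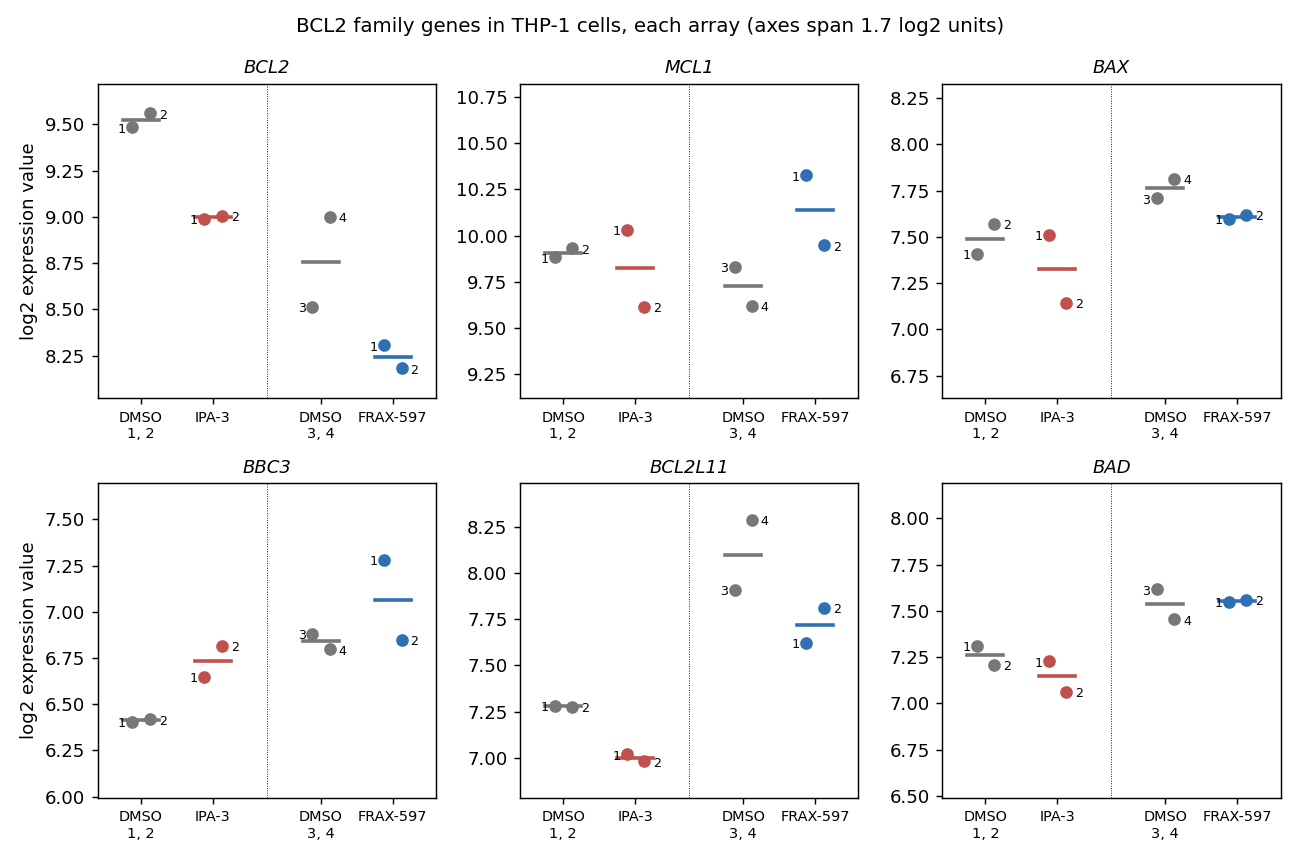
Log2 expression value of each gene on each of the 8 arrays; points are arrays numbered by replicate, bars are means of 2 arrays, and the dotted line parts the 2 scales. BCL2 and BCL2L11 lie below their DMSO arrays with each compound, and the DMSO 3 and 4 points of both genes stand further apart than those of DMSO 1 and 2.

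Among the survival genes, BCL2 (probe 16855673) read 9.48 in DMSO 1 and 9.56 in DMSO 2, and 8.99 and 9.00 in the 2 IPA-3 arrays. Both IPA-3 arrays were lower than both controls by at least 0.48, while replicates of either group differed by no more than 0.07. The means were 9.52 ± 0.05 (SD, n = 2) and 9.00 ± 0.01 (SD, n = 2), 1.44-fold lower with IPA-3 (log2 change -0.52, SE 0.16, 95% interval -0.90 to -0.14; limma adjusted p = 0.57). Of all genes tested, 1.14% had a lower change.

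With FRAX-597, BCL2 read 8.31 and 8.18, against 8.51 in DMSO 3 and 9.00 in DMSO 4. All FRAX-597 values lay below all controls, by 0.21 at the nearest, but the 2 controls differed from each other by 0.49. The means were 8.76 ± 0.34 (SD, n = 2) and 8.24 ± 0.09 (SD, n = 2), 1.43-fold lower (log2 change -0.51, SE 0.16, 95% interval -0.89 to -0.13; limma adjusted p = 0.46). The change was -0.27 without DMSO 4 and -0.76 without DMSO 3, so the size depended on which control was kept. The difference between the 2 compounds' changes in BCL2 was 0.01 (SE 0.23, 95% interval -0.53 to 0.55; limma adjusted p = 0.997), so a difference of up to about the size of either change lies within the interval.

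BCL2 also differed between the 2 pairs of solvent controls. Its value in DMSO 3 and 4 minus that in DMSO 1 and 2 was -0.77, where the median over all genes was 0.48, and 1.77% of genes had a value as low. The same difference was -0.18 for MCL1, 0.27 for BAX, 0.43 for BBC3, 0.82 for BCL2L11 and 0.28 for BAD. BCL2 and BCL2L11 thus stood on opposite sides of the median of all genes between the control pairs, at -1.25 and 0.34 relative to it. What sets the control pairs apart was not tested.

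MCL1 (probe 16692775) read 9.88 and 9.93 in DMSO 1 and 2, and 10.03 and 9.62 with IPA-3. One IPA-3 array was above the controls and the other below, so the groups overlapped (log2 change -0.08, SE 0.18, 95% interval -0.51 to 0.34; limma adjusted p = 0.968). With FRAX-597 it read 10.33 and 9.95, against 9.83 in DMSO 3 and 9.62 in DMSO 4. Both FRAX-597 arrays were the higher, the nearer by 0.12, and they differed from each other by 0.38. The means of 9.73 ± 0.15 (SD, n = 2) and 10.14 ± 0.27 (SD, n = 2) gave a change of 0.41, or 1.33-fold (SE 0.18, 95% interval -0.02 to 0.84; limma adjusted p = 0.675), which was 0.22 without FRAX-597 1 and 0.60 without FRAX-597 2.

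MCL1 had the largest difference between the compounds as fitted, though not without FRAX-597 1, where BBC3 had -0.310 and MCL1 0.306. With pooled controls the DMSO arrays cancel, which leaves FRAX-597 levels minus IPA-3 levels across the 2 scales (BCL2 -0.75, BCL2L11 0.72, MCL1 0.31). Those values are not differences of changes and do not rank the members. For MCL1 as fitted, the FRAX-597 change minus the IPA-3 change was 0.49 (SE 0.26, 95% interval -0.11 to 1.10; limma adjusted p = 0.864), so the difference was not beyond the replicate error. In this test of the difference 0 of the 6 were called, against 0.0134% of all genes, and 0 had an unadjusted p under 0.05, against 6.11%. For the other 5 members the differences lay between -0.10 (BCL2L11) and 0.13 (BAD), and each 95% interval spanned 0: -0.47 to 0.49 for BAX, -0.61 to 0.42 for BBC3, -0.58 to 0.38 for BCL2L11 and -0.25 to 0.52 for BAD.

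**Figure D2:**
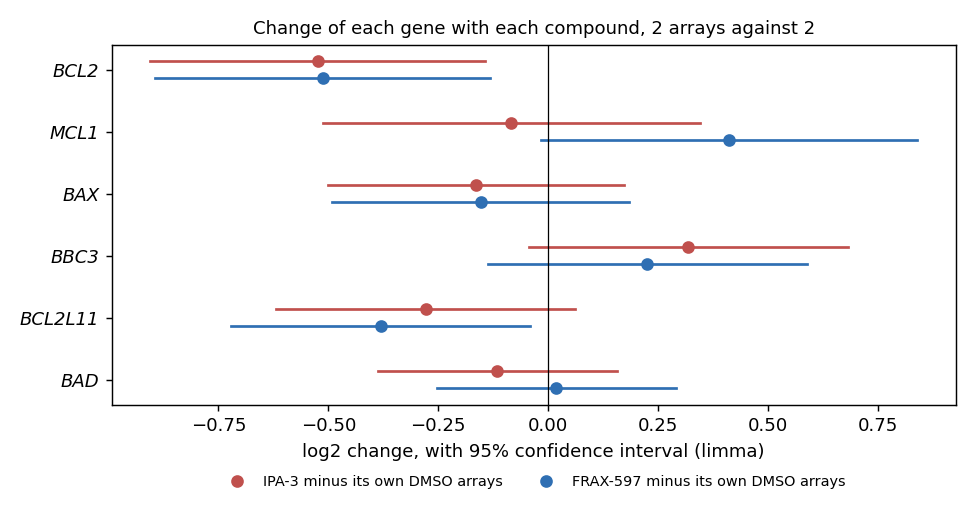
Log2 change of each gene from the mean of the matching 2 DMSO arrays, for IPA-3 and for FRAX-597; points are differences of 2-array means and lines are 95% confidence intervals from limma, not adjusted for the number of genes. The intervals of BCL2 lie below 0 with both compounds and that of BCL2L11 with FRAX-597; the others span 0.

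The effector BAX (probe 16863922) read 7.41 and 7.57 in DMSO 1 and 2, and 7.51 and 7.14 with IPA-3, which overlapped the controls. In the other comparison it read 7.71 and 7.82 in DMSO 3 and 4, and 7.60 and 7.62 with FRAX-597, lower than both controls by 0.09. The changes were -0.16 (SE 0.14; limma adjusted p = 0.86) and -0.15 (SE 0.14; adjusted p = 0.919). The 95% intervals were -0.50 to 0.17 and -0.49 to 0.18. With IPA-3 the sign rested on 1 array: the change was 0.02 without IPA-3 2 and -0.35 without IPA-3 1.

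Of the BH3-only genes, BBC3 (probe 16873675) read 6.41 and 6.42 in DMSO 1 and 2, and 6.65 and 6.81 with IPA-3. Both IPA-3 arrays were higher, by 0.23 at the nearest, and the controls were almost equal (change 0.32, 1.25-fold, SE 0.16, 95% interval -0.04 to 0.68; limma adjusted p = 0.729). It read 6.88 and 6.80 in DMSO 3 and 4, and 7.28 and 6.85 with FRAX-597, where the lower array lay between the controls. That change was 0.23 (SE 0.16, 95% interval -0.14 to 0.59; limma adjusted p = 0.854), with 0.01 without FRAX-597 1 and 0.44 without FRAX-597 2.

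BCL2L11 (probe 16884335) had closely matched replicates in the first comparison, at 7.28 in both DMSO 1 and DMSO 2, and 7.02 and 6.98 with IPA-3. Both IPA-3 arrays were lower by at least 0.26, and the replicates of each group were within 0.04 of each other. The change was -0.28 (1.21-fold lower, SE 0.15, 95% interval -0.62 to 0.06; limma adjusted p = 0.75), with an SE drawn from all 8 arrays. It read 7.91 and 8.29 in DMSO 3 and 4, and 7.62 and 7.81 with FRAX-597. These groups were apart by only 0.10, and DMSO 3 and 4 differed by 0.38. The change was -0.38 (1.30-fold lower, SE 0.15, 95% interval -0.72 to -0.04; adjusted p = 0.606), which was -0.19 without DMSO 4 and -0.57 without DMSO 3.

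BAD (probe 16739872) had the narrowest spread of the 6 over the 8 arrays. It read 7.31 and 7.21 in DMSO 1 and 2 and 7.23 and 7.06 with IPA-3 (change -0.12, SE 0.12; limma adjusted p = 0.888). It read 7.62 and 7.46 in DMSO 3 and 4 and 7.55 and 7.56 with FRAX-597 (change 0.02, SE 0.12; adjusted p = 0.998). The groups overlapped in both comparisons, and the 95% intervals ran from -0.39 to 0.16 and from -0.25 to 0.29. These intervals reflect array-to-array spread alone.

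Across the members, then, the changes with IPA-3 ran from -0.52 (BCL2) to 0.32 (BBC3). Of the 6, 1 lay above 0 (44.4% of all genes did) and 5 below, with a median of -0.14, against -0.02 over all genes. With FRAX-597 the changes ran from -0.51 (BCL2) to 0.41 (MCL1). Here 3 lay above 0 (45.3% of all genes did) and 3 below, with a median of -0.07, against -0.02 over all genes. After the mean of its own 4 arrays was taken from each value, BCL2 and BCL2L11 correlated over the 8 arrays at a Pearson r of 0.92, and BBC3 correlated with BCL2L11 at -0.82 and with BCL2 at -0.65. BAX correlated with BCL2 at 0.64, BCL2L11 at 0.64 and BBC3 at -0.66. BAD was near 0 with BCL2 (0.04) and BCL2L11 (-0.01), but not with MCL1 (0.50), BAX (0.38) or BBC3 (-0.39). MCL1 correlated with BCL2L11 at -0.60, BCL2 at -0.40, BBC3 at 0.40 and BAX at 0.07. These correlations describe 8 arrays that share treatments and the same cells, and they include the difference between DMSO 3 and DMSO 4, where BCL2 differed by -0.49 and BCL2L11 by -0.38.

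Under the same measure, genes with the most similar pattern were sought among 7041 genes above the median level. The highest of 7041 correlations over 8 arrays are large through selection alone. The genes below are therefore a description, and shared control was not tested. For BCL2 they were FRMD4B (r = 0.98), the acetyltransferase KAT2A (0.977) and MGA (0.969), a MAX partner. For BCL2L11 they were SCAP (0.989), which escorts SREBP in sterol sensing, the RNase P subunit RPP40 (0.989) and the zinc finger gene ZNF121 (0.978). MCL1 was most like the zinc finger genes ZNF212 (0.988) and ZNF140 (0.983) and GPATCH2L (0.974), and BBC3 most like RAB11FIP2 (0.974), the read-through gene MSANTD3-TMEFF1 (0.974) and AKIRIN2 (0.972). BAX was most like JPT1 (0.964), the topoisomerase TOP3A (0.962) and the lipase PNPLA2 (0.961), and BAD most like the chaperone UNC45A (0.975), SYPL1 (0.962) and KIAA1191 (0.923). None of these genes was called for either compound in limma.

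**Figure D3:**
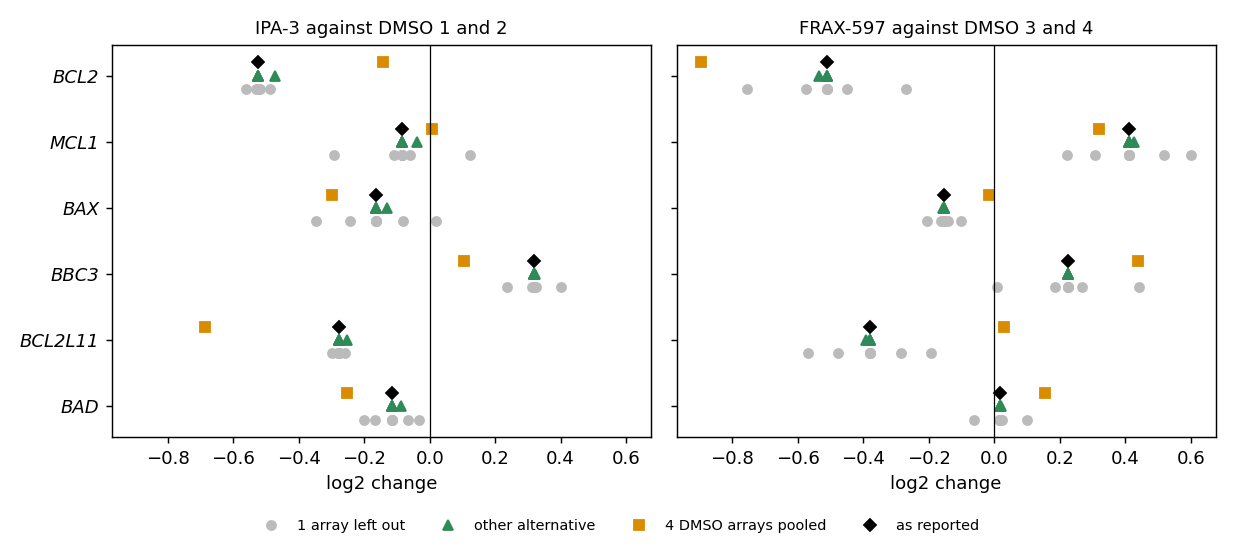
Log2 change of each gene with IPA-3 (left) and FRAX-597 (right) as reported and under the alternatives tried, including each array left out in turn. BCL2 stays below 0 and BBC3 above 0 in both panels; with the 4 DMSO arrays pooled, BCL2L11 moves to -0.69 with IPA-3 and 0.03 with FRAX-597.

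With all 4 DMSO arrays pooled, which mixes the 2 scales and gives a median over all genes of -0.26 for IPA-3 and 0.23 for FRAX-597, BCL2 had changes of -0.14 and -0.90. BCL2L11 then had -0.69 with IPA-3 and 0.03 with FRAX-597. Under every alternative tried, 0 of the 6 were called, and the lowest adjusted p of any of them was 0.0981 in limma, for BCL2 with IPA-3 when its 4 arrays were fitted alone (0.0981 to 1 over the alternatives).

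The rest of the BCL2 family was listed as 17 genes, of which 15 were measured and 0 were called for either compound in limma. Of all genes, 0.0336% were called for IPA-3 and 0.155% for FRAX-597. With IPA-3, 6 of the 15 lay above 0 (44.4% of all genes did) and 9 below (median -0.17), and 2 had an unadjusted p under 0.05, both lower (4.11% of all genes). These were BAK1, the second pore-forming effector (change -0.41, SE 0.16; adjusted p = 0.667), and BIK, a BH3-only gene (-0.52, SE 0.22; adjusted p = 0.69). BCL2L12, a family member without a settled role, came next (-0.26, SE 0.12; adjusted p = 0.697). With FRAX-597, 10 lay above 0 (45.3% of all genes did) and 5 below (median 0.06), and 1 lay lower at an unadjusted p under 0.05 (3.61% of all genes). This was BOK, a further effector (-0.28, SE 0.11; adjusted p = 0.593). BID, the BH3-only protein cut by caspase-8, had 0.21 (SE 0.12; adjusted p = 0.815) and BNIP3L, a receptor for the removal of mitochondria, 0.30 (SE 0.18; adjusted p = 0.827).

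BCL2A1, a survival protein induced by NF-kB, had a change of 0.85 with IPA-3 and 0.78 with FRAX-597 (SE 0.73 each; limma adjusted p = 0.857 and 0.918). It read 5.68 and 5.48 in DMSO 1 and 2 and 6.35 and 6.52 with IPA-3, where both treated arrays were higher. In the other comparison it read 6.70 and 6.00 in DMSO 3 and 4, and 8.47 and 5.78 with FRAX-597, where 1 array was the highest and the other the lowest of the 4. PMAIP1 (NOXA), the BH3-only protein that binds MCL1, showed the same order of arrays, reading 9.87 and 9.52 in the controls and 10.67 and 9.47 with FRAX-597. BCL2A1, PMAIP1 and BCL2L1 were named after their values were seen. BCL2L1 (BCL-XL), a survival gene, had changes of -0.19 and -0.09 (SE 0.15 each).

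**Figure D4:**
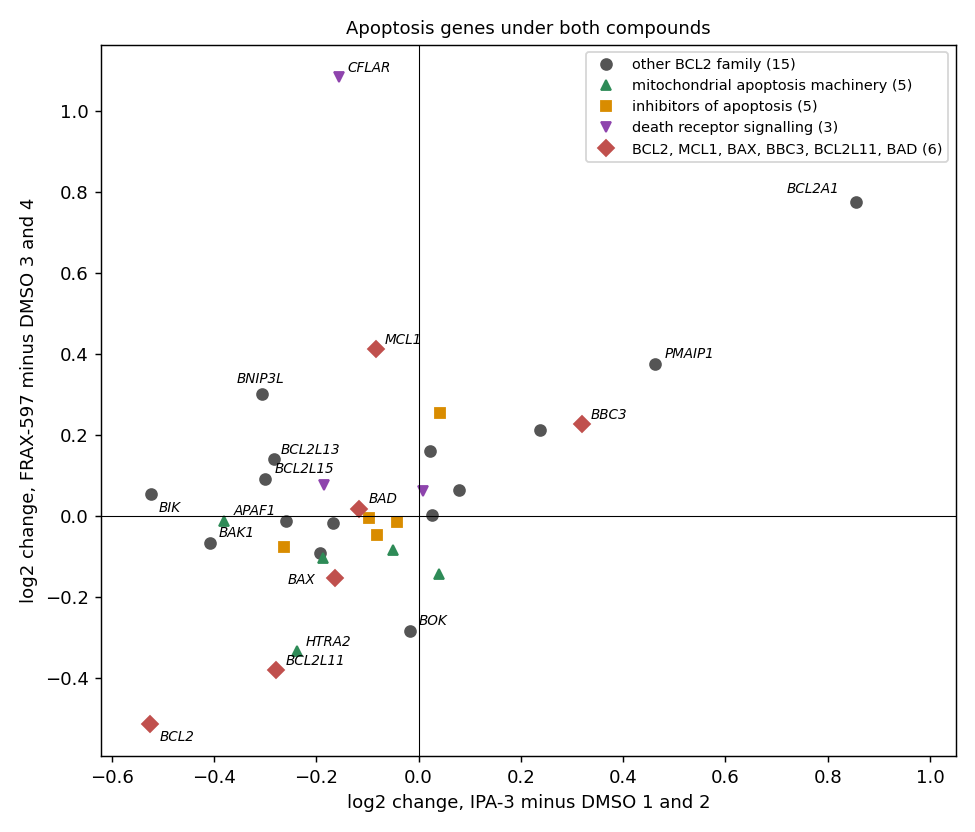
Log2 change with IPA-3 (horizontal) against log2 change with FRAX-597 (vertical) for the measured genes of 5 groups: the 6 described here, the other BCL2 family genes, the mitochondrial death machinery, inhibitors of apoptosis and death receptor signalling. Each point is a gene and numbers in the key count genes. BCL2 lies at the lower left, BCL2A1 is far to the right, and CFLAR is the highest of the plotted genes, with a FRAX-597 change of 1.08.

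Downstream and beside the family, coverage was partial and 0 genes were called in limma, against 0.0336% of all genes for IPA-3 and 0.155% for FRAX-597. At an unadjusted p under 0.05, 0 genes of these 3 lists lay higher or lower with IPA-3 (3.10% and 4.11% of all genes). With FRAX-597, 1 inhibitor of apoptosis (BIRC2) and 1 death receptor gene (CFLAR) lay higher (4.04%), and 0 lower (3.61%). Of 12 genes of the mitochondrial death machinery 5 were measured (APAF1, HTRA2, ENDOG, VDAC1 and VDAC2). Their median was -0.19 with IPA-3, where APAF1, the scaffold of the apoptosome, had -0.38 (SE 0.20; adjusted p = 0.75), and -0.10 with FRAX-597, where the protease HTRA2 had -0.33 (SE 0.17; adjusted p = 0.754). Of 7 inhibitors of apoptosis 5 were measured, with medians of -0.08 and -0.01. BIRC2, a ubiquitin ligase of this class, had 0.25 with FRAX-597 (SE 0.11; adjusted p = 0.65). Of 9 genes of death receptor signalling 3 were measured, the adaptors FADD and TRADD and the regulator CFLAR, and none of them is a receptor. CFLAR, which blocks caspase-8, read 8.48 and 8.63 in DMSO 3 and 4 and 9.94 and 9.33 with FRAX-597, a change of 1.08 (SE 0.20; adjusted p = 0.176), and -0.16 with IPA-3 (SE 0.20; adjusted p = 0.927). Both FRAX-597 arrays lay above the controls.

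Of 41 genes known to act on the members, through transcription or through phosphorylation and turnover of the proteins, 26 were measured and 0 were called. The share called among all genes was 0.0336% for IPA-3 and 0.155% for FRAX-597. PAK1 is not analysed here. At an unadjusted p under 0.05, 2 of the 26 lay higher and 0 lower with IPA-3 (3.10% and 4.11% of all genes), and 5 higher and 2 lower with FRAX-597 (4.04% and 3.61%). MYC, a growth-driving transcription factor, read 8.51 in both DMSO 3 and DMSO 4 and 7.43 and 7.85 with FRAX-597 (change -0.87, SE 0.15; limma adjusted p = 0.132), against -0.18 with IPA-3 (SE 0.15). ATF4, a stress factor upstream of BBC3 and PMAIP1, had 0.39 with IPA-3 (SE 0.10; adjusted p = 0.526) and 0.57 with FRAX-597 (SE 0.10; adjusted p = 0.191), with all treated arrays above their controls. DDIT3 and the FOXO genes were named after their values were seen. DDIT3 (CHOP), which ATF4 induces, had 1.55 with FRAX-597 (SE 0.61; adjusted p = 0.611), from 9.26 and 7.17 against 7.13 and 6.21 in DMSO 3 and 4. Among FOXO genes, FOXO3 had 0.06 and 0.14 (SE 0.12 each), FOXO1 had 0.08 and 0.31 (SE 0.11 each), and FOXO4 had -0.07 and -0.04 (SE 0.22 each). PIM1, a kinase that phosphorylates BAD, had 0.55 and 0.56 (SE 0.18 each; adjusted p = 0.591 and 0.459). The kinase PIM2 had -0.50 with IPA-3 (SE 0.27; adjusted p = 0.751) and 0.43 with FRAX-597 (SE 0.27; adjusted p = 0.832), a difference of 0.93 (SE 0.38; limma adjusted p = 0.798).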

How the data were processed

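Total RNA from THP-1 cells was labelled with biotin and hybridised to 8 Affymetrix whole-transcript arrays. The deposited series table holds the authors' log2 expression values, for which the submitters' processing notes name Transcriptome Analysis Console and Affymetrix Expression Console, giving no version. Summarisation, background correction, joint normalization and genome build are not given in the sources used here, and detection calls were not used here. Of 53617 probes 16098 carried 1 gene symbol, 0 several and 37519 none; all 16098 matched the RefSeq gene table of GRCh38.p14 by identifier. For 779 genes with more than 1 probe, that with the highest mean was kept, leaving 14884 genes.

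Limma 3.58.1 in R 4.3.3 (lmFit, eBayes) fitted 4 groups (DMSO 1 and 2, IPA-3, DMSO 3 and 4, FRAX-597) over all 8 arrays, with 4 residual degrees of freedom. A gene was called at a two-sided Benjamini-Hochberg adjusted p under 0.05 over all genes. The procedure was tested on simulated data. An exact permutation test of 2 arrays against 2 cannot reach that threshold and was not run. The members, lists and tests were chosen with earlier results of these data known. Named genes are all members, the 3 with the smallest p per list and compound (some are left out of the text), and the 3 most correlated with each member. Alternatives were pooled controls, each comparison alone, quantile normalization, dim genes left out, all named probes, all probes, pairs as blocks, and each array left out. The blocks paired DMSO 3 with FRAX-597 1 and DMSO 4 with FRAX-597 2. The IPA-3 arrays and DMSO 1 and 2 formed 1 block and were not paired.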

Additional observations from a re-analysis of the deposited data

Results flagged for a closer look

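In 3 of 35 genes examined (the 6 members and the listed genes taken by rule), 1 of the 4 DMSO arrays stood apart from the other 3 by more than Dixon's limit for 4 values; chance alone marks about 1 in 20 such groups, and the 4 arrays lie on 2 scales. None of the 6 members was among them. The survivin gene BIRC5 read 9.07 in DMSO 3 and 8.47 to 8.57 in the others, a gap of 0.843 of the range. The kinase PIM2 read 8.04 in DMSO 4 and 7.85 to 7.87 in the others (0.878 of the range). The ribonucleotide reductase gene RRM2B read 8.10 in DMSO 3 and 8.33 to 8.36 in the others (0.885 of the range).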

How the results depend on the processing

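No member was called in any of 264 results under alternatives, of which 245 kept the sign and 19 turned it. With the 4 DMSO arrays pooled, MCL1 with IPA-3 was 0.007117 and BCL2L11 with FRAX-597 0.02863. The contrasts between compounds in that setting were -0.754 for BCL2, 0.334 for BBC3 and 0.716 for BCL2L11. They are counted among the 19, but pooled controls cancel there. What remains is the level gap between FRAX-597 and IPA-3 arrays across the 2 scales. Quantile normalization turned the differences of BCL2 (-0.0634) and BAX (-0.0275). With 1 array left out, changes ran from -0.291 to 0.124 for MCL1 and from -0.347 to 0.0202 for BAX with IPA-3, and from -0.0624 to 0.0987 for BAD with FRAX-597. The differences then ran from -0.232 to 0.255 for BCL2, -0.174 to 0.194 for BAX, -0.31 to 0.124 for BBC3 and -0.29 to 0.0855 for BCL2L11. Over all genes 5 were called for IPA-3, 23 for FRAX-597 and 2 for the difference. IPA-3 calls were 0 with pooled controls (843 at an unadjusted p under 0.05), 96 with its 4 arrays alone, 2 after quantile normalization or without dim genes, 0 with every probe (3416), 72 with pairs as a block and 0 to 24 with 1 array left out (0 without DMSO 1, DMSO 2 or either IPA-3 array, with 491 to 1146 at an unadjusted p under 0.05). FRAX-597 calls were 5 with pooled controls, 0 alone (606 at an unadjusted p under 0.05), 6 with every probe, 202 with the block and 2 to 227 with 1 left out (2 without DMSO 1, DMSO 2 or either IPA-3 array, 227 without FRAX-597 2). Calls for the difference were 1 without dim genes, 38 with the block and 0 to 27 with 1 left out (0 without the same 4 arrays, with 508 to 936 at an unadjusted p under 0.05). Limma was used throughout. Those pairs came from these values, not from the labels. The causes were not tested. The number of arrays limits precision.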

Other observations

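Targets of the FOXO transcription factors, which act on BCL2L11, were also listed. Of 14 such genes 11 were measured, with 0 called for either compound in limma, against 0.0336% (IPA-3) and 0.155% (FRAX-597) of all genes. With IPA-3 the median was -0.12, and at an unadjusted p under 0.05 1 lay lower (4.11% of all genes) and 0 higher (3.10%). The gene was INSR, the insulin receptor (-0.50, SE 0.14, limma adjusted p = 0.527). TXNIP, which binds thioredoxin, had -0.28 (SE 0.12). With FRAX-597 the median was 0.19, and at an unadjusted p under 0.05 1 lay higher (CCNG2, 4.04% of all genes) and 1 lower (INSR, 3.61%). CCNG2, a cyclin tied to cell cycle exit, read 6.65 and 6.54 in DMSO 3 and 4 and 7.88 and 7.38 with FRAX-597 (change 1.04, SE 0.17; adjusted p = 0.107), INSR had -0.36 (SE 0.14; adjusted p = 0.606) and the repressor BCL6 0.89 (SE 0.43; adjusted p = 0.732). BCL2L11, itself a FOXO target, had -0.28 with IPA-3 and -0.38 with FRAX-597, neither of them called. With FRAX-597 the listed targets ran from -0.377 to 1.04, with 4 of 11 below 0. FOXO control of BCL2L11 was not tested. Of 20 listed p53 targets 9 were measured, with 0 called for either compound in limma. At an unadjusted p under 0.05, 0 of these lay higher and 1 lower with IPA-3 (3.10% and 4.11% of all genes). With FRAX-597, 3 lay higher (SESN2, RRM2B and PLK3) and 0 lower (4.04% and 3.61%). Control of the members by p53 was not tested.

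FRAX-597 1 had a higher value than FRAX-597 2 for MCL1 (by 0.38) and BBC3 (by 0.43). The order was the same in DDIT3, SESN2, BCL2A1 and PMAIP1. In each of these genes DMSO 3 also lay above DMSO 4, by 0.21 for MCL1, 0.08 for BBC3 and 0.92 for DDIT3. That gap was 0.78 for SESN2, 0.70 for BCL2A1 and 0.34 for PMAIP1. Taken gene by gene, the gap between these 2 controls rose with that between the 2 FRAX-597 arrays (correlation 0.655). For the gaps within DMSO 1 and 2 and within IPA-3 the correlation was -0.059. SESN2, a sestrin that ATF4 induces and that was also listed as a p53 target, read 8.54 and 7.76 in DMSO 3 and 4. It read 10.58 and 9.07 with FRAX-597. For BCL2, DMSO 4 was the higher control by 0.49 while FRAX-597 1 was the higher treated array by 0.12. For BCL2L11, DMSO 4 and FRAX-597 2 were the higher of each pair, by 0.38 and 0.19. The part of this spread in the members' values was not tested.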
